A study of Mus musculus with 4 samples.

Results

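Genes of hypoxia and glycolysis were examined in MC38, a murine colon carcinoma cell line, in which Mgat5 had been knocked out by CRISPR-Cas9 or left intact. The set held 34 genes chosen by name: 16 glycolytic enzymes and 18 other targets of the hypoxia-inducible factors (HIF). A gene counted as measured where the platform annotation carried its symbol, which was so for 32 of the 34, 14 enzymes and 18 other targets, among 19505 named genes. Gpi1 and Eno1 were not analysed here. Each measured gene had 1 probe set. The 4 Clariom S mouse arrays were 1 each of MOCK (MC38 cells given an empty vector), WT (the MC38 control condition), and the knockout cells titled clone 1 and clone 2. MOCK and WT formed the control group and the clones the knockout group, n = 2 arrays per group. Mgat5 encodes a Golgi enzyme that adds a branch to N-glycans. Each knockout array is a single clone and neither control is titled as one, so cloning and Mgat5 loss cannot be told apart. Nothing in the labels names separate cultures, so p-values measure only the spread between these 4 arrays, which may be technical. Each array reads bulk RNA, in which fewer cells expressing a gene and less RNA per cell cannot be told apart.

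Glycolysis splits glucose into pyruvate in the cytosol, and lactate dehydrogenase turns pyruvate into lactate, the route many tumour cells favour even in air. HIF is a dimer of an oxygen-regulated alpha subunit and ARNT. When oxygen is ample, prolyl hydroxylases (the EGLN proteins) mark the alpha subunit for VHL-directed breakdown. When oxygen is short, the dimer binds a short DNA core and raises glucose transporters, most glycolytic enzymes, the hydroxylases themselves and genes of mitochondrial turnover, pH control and vessel growth.

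The upstream sequences of 6 members are shown so that both directions can be read. Bnip3, Egln3, Pfkl, Pdk1 and Pgk1 had the 5 lowest knockout minus control differences after quantile normalization among members with an entry, and Pfkfb3 had the highest among those with an entry and signals above background. Each run is the 250 bases before the first start listed for the gene in RefSeq (GRCm38.p6), 5′ to 3′ on the gene's strand. Capitals mark matches, on either strand, to the HIF core, searched as ACGTG and GCGTG, which read CACGT and CACGC on the other strand.
Bnip3: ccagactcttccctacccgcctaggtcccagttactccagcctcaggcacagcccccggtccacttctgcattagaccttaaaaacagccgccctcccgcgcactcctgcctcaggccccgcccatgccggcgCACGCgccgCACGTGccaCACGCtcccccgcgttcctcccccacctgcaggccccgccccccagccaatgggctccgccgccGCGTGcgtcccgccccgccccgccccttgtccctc
Egln3: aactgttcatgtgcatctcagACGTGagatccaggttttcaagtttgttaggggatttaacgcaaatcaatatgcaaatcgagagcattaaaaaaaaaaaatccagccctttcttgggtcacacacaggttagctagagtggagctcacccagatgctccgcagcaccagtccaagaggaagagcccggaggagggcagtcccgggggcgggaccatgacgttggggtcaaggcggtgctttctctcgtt
Pfkl: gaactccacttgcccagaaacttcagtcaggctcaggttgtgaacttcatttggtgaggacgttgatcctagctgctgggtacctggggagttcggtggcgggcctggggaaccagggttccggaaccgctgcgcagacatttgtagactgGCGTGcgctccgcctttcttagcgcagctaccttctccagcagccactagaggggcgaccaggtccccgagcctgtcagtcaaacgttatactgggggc
Pdk1: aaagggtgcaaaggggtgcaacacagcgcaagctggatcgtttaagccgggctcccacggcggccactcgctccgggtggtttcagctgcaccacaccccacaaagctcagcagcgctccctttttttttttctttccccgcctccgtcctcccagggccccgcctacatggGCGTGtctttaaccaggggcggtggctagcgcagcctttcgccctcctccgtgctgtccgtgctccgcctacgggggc
Pgk1: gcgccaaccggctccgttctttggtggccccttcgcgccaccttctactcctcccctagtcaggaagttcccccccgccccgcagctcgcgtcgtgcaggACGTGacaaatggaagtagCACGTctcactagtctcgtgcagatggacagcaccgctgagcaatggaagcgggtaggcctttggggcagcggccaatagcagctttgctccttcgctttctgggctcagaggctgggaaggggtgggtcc
Pfkfb3: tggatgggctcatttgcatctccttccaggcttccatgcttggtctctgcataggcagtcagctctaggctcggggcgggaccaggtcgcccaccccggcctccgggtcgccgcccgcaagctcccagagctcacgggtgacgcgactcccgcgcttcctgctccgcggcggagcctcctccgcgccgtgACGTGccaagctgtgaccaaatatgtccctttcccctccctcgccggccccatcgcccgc
The windows lie at chr7:138909507-138909756 on the minus strand for Bnip3, chr12:54203875-54204124 (minus) for Egln3, chr10:78009808-78010057 (minus) for Pfkl, chr2:71872974-71873223 (plus) for Pdk1, chrX:106186850-106187099 (plus) for Pgk1 and chr2:11553930-11554179 (minus) for Pfkfb3. Bnip3 held 5 matches, of which the pair at 108 and 107 bases before the start overlap in the palindrome CACGTG, a sequence that other factors such as MYC also bind. Pgk1 held 2, at 150 and 131 bases before the start. Egln3, Pfkl, Pdk1 and Pfkfb3 held 1 each, at 229, 99, 78 and 60 bases. The second start listed for Pdk1 had 0 matches in its window and that of Pfkfb3 had 3. Of the 29 measured members with an entry, 27 held a match before at least 1 of their starts, against 41.5% of the 27025 genes in the table. Aldoa, Hk1, Pkm and Vegfa held none before their first start and counted through a later one. The later Vegfa window, chr17:46025164-46025413 (minus), lies downstream of the first, chr17:46032378-46032627, so it is not upstream of the first start. Several starts were listed for 9 of the members, which gives more places for a match, and the 41.5% was not matched for this. For ACGTG alone the counts were 19 of 29 against 18.5%, and for GCGTG alone 20 of 29 against 30.9%. Tpi1 and Eno2 were the 2 members without a match. These are matches of letters, not measured binding, and genes higher and lower in the clones both carry them.

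**Figure D1:**
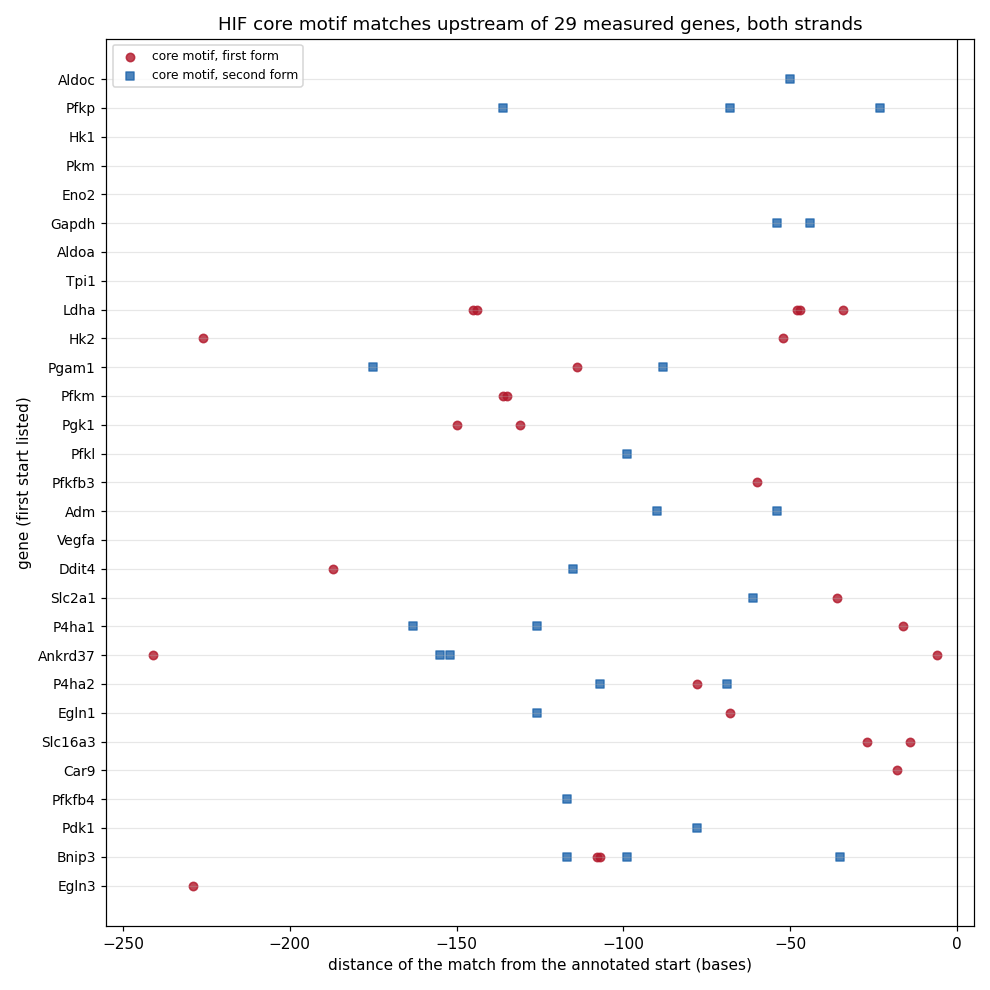
Matches to the HIF core motif in the 250 bases upstream of the first listed start of the 29 measured members with an entry. The x axis is the distance of the match from the annotated start in bases, each row is a gene, circles are the form ACGTG and squares the form GCGTG on either strand. Bnip3 carries 5 matches and Egln3 1, far upstream at 229 bases, and rows without a symbol hold none before their first start.

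Signals, differences and standard errors (SE) are on the log2 scale, so 1 unit is a doubling. The arrays did not share 1 scale, and this bears on these genes because many lie in the upper range. Among all probe sets with a mean signal above 12, MOCK stood above WT by a median of 0.92 as deposited and 0.03 after quantile normalization, which gives all arrays the same distribution. The median difference over all 22206 probe sets, knockout minus control, was 0.18 as deposited and -0.02 after quantile normalization. Both scalings are therefore given. Mgat5 itself read 8.19 (MOCK), 8.27 (WT), 7.46 (clone 1) and 7.57 (clone 2), a difference of -0.71 (limma adjusted p = 0.631). After quantile normalization the arrays in that order read 8.23, 8.65, 7.37 and 7.30, a difference of -1.11 (SE 0.31, adjusted p = 0.419). Both clones were below both controls in either scaling. Of 9 epithelial markers 7, Epcam, Cdh1, Cdx2 and Krt20 among them, were below the median of the negative control features on every array, so the defining transcripts of colon epithelium were at background, whereas 5 of 7 mesenchymal markers such as Vim were above it on every array. Of the leukocyte markers 5 of 6 and of the endothelial markers 4 of 4 were below it throughout.

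No member passed the test. Limma called 0 of 32 at an adjusted p under 0.05, with a background of 0.0405% of all probe sets as deposited and 0.0045% after quantile normalization. At an unadjusted p under 0.05, 4 members were lower in the knockout (background 1.22%) and 3 higher (background 7.54%) as deposited, and 10 lower (background 4.22%) and 1 higher (background 4.7%) after quantile normalization. Both clones lay below both controls for 7 members as deposited (background 11.7%) and 18 after quantile normalization (background 21.3%). Both clones lay above both controls for 9 (background 27.8%) and 5 (background 19.2%). As deposited 15 members were higher and 17 lower by any amount (background 65.1% and 34.9%), and after quantile normalization 11 were higher and 21 lower (background 48.3% and 51.7%). The median difference over the 32 was -0.10 as deposited and -0.44 after quantile normalization. Direction was the same as deposited, after quantile normalization, after median centring and after cyclic loess for 28 members, 17 lower and 11 higher. Aldoa, Tpi1, Pkm and P4ha1 flipped from slightly above 0 as deposited to below 0 in at least 1 other scaling.

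**Figure D2:**
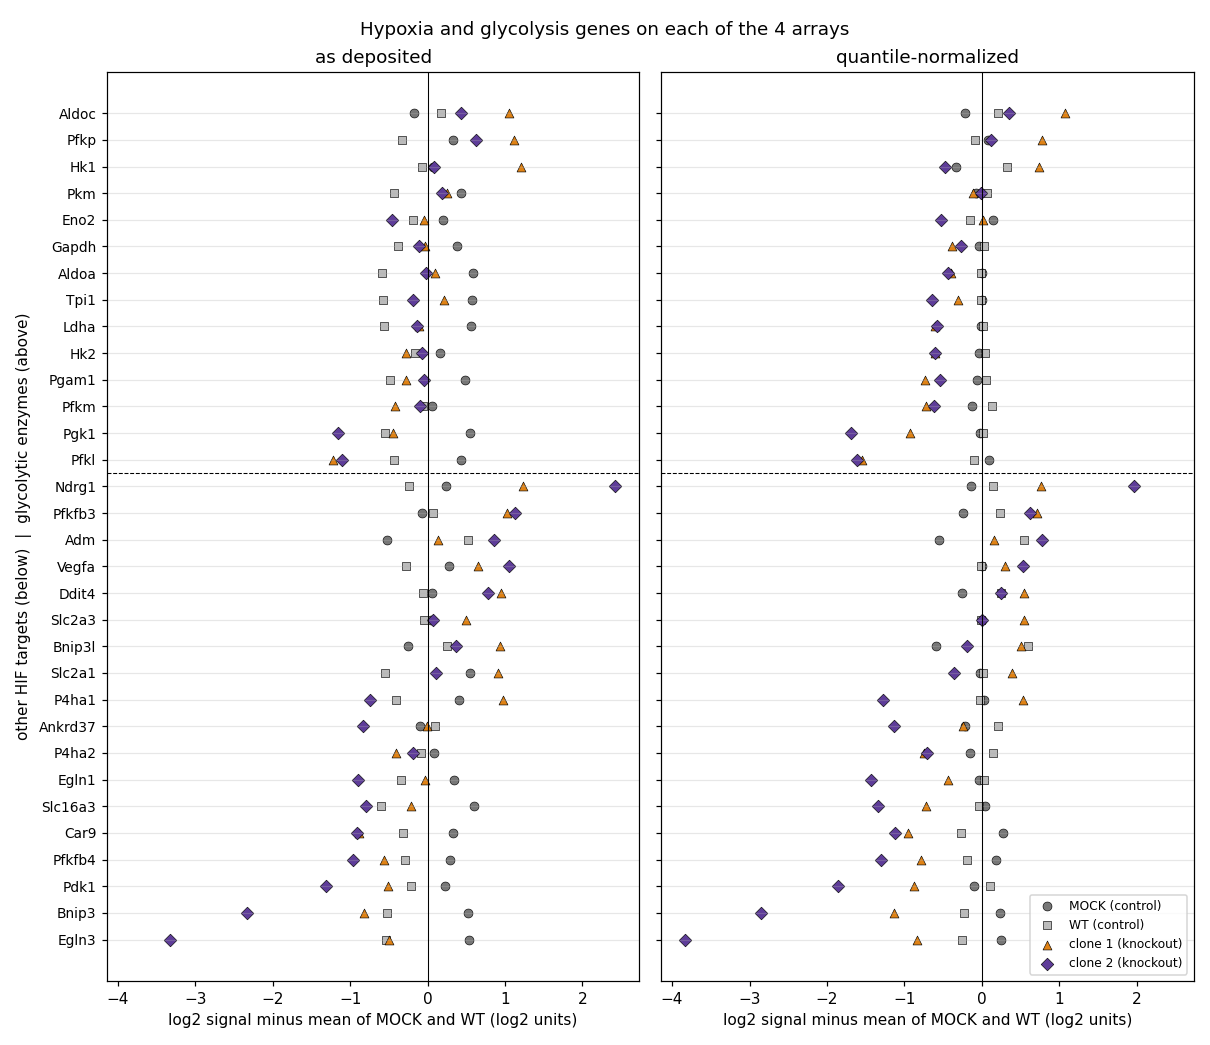
Signal of each of the 32 measured members on each array, minus the mean of MOCK and WT, in log2 units on the x axis, as deposited at left and quantile-normalized at right, with 1 row per gene. Grey symbols are the controls, orange triangles clone 1 and purple diamonds clone 2. In the right panel the controls draw together for most glycolytic enzymes, and clone 2 stands far left for Egln3 (-3.83) and Bnip3 (-2.85) and far right for Ndrg1 (1.97).

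Most glycolytic enzymes had lower values in the clones after quantile normalization, by an amount that depended on the scaling. Of the 14 measured, 11 were lower and 3 higher after quantile normalization, with a median difference of -0.44, and 9 had both clones below both controls (background 21.3%). After median centring, 10 were lower and 4 higher, the median was -0.23, and 4 had both clones below both controls. Of all 22206 probe sets, 10278 were lower after median centring and 3990 had both clones below both controls. As deposited, 8 were lower and 6 higher, the median was -0.10, and 2 had both clones below both controls (background 11.7%). Over all probe sets with a mean signal above 12, where many but not all of the enzymes lie, the deposited median was 0.43. Without MOCK the enzymes' deposited median was 0.38, a turn of direction, and without WT it was -0.45. After quantile normalization the median with each array left out in turn ran from -0.53 to -0.40.

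The first steps of the pathway differed among isoforms. Hexokinases trap glucose as its phosphate. Hk1 read 12.77 (MOCK), 12.63 (WT), 13.91 (clone 1) and 12.78 (clone 2). Clone 1 alone stood out, 2.30-fold above the control mean, and after quantile normalization, with 12.64, 13.30, 13.71 and 12.49 in the same array order, the groups overlap. Hk2, the hexokinase most tied to HIF in tumours, read 9.18 (MOCK), 8.87 (WT), 8.75 (clone 1) and 8.95 (clone 2). These groups overlap, and after quantile normalization both clones were 1.51-fold lower on average (SE 0.29, limma adjusted p = 0.598).

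Phosphofructokinase, which commits sugar to glycolysis, is built from 3 isoform genes here, and they did not go the same way. Pfkl, the liver-type subunit, read 12.41 (MOCK), 11.54 (WT), 10.75 (clone 1) and 10.87 (clone 2). Quantile-normalized, the 4 arrays in that order read 12.29, 12.10, 10.64 and 10.58. Both clones were low and close to each other in either scaling. The mean was 2.24-fold lower as deposited (SE 0.42, limma adjusted p = 0.453) and 2.99-fold lower after quantile normalization, a difference of -1.58 (SE 0.30, 95% interval -2.27 to -0.89, adjusted p = 0.22). Pfkm, the muscle type, read 8.62 (MOCK), 8.504 (WT), 8.14 (clone 1) and 8.47 (clone 2), a difference of -0.26, or -0.67 after quantile normalization. Pfkp, the platelet type, was instead above the controls, at 10.19 (MOCK), 9.54 (WT), 10.98 (clone 1) and 10.49 (clone 2). Its difference was 0.87 as deposited (SE 0.41, adjusted p = 0.585) and 0.45 after quantile normalization (SE 0.34, adjusted p = 0.731), where the arrays read 10.16, 9.99, 10.85 and 10.20 and clone 2 barely cleared MOCK. With each array left out in turn, the scaled Pfkl difference ran from -1.72 without WT to -1.47 without MOCK.

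For most of the middle and late steps the groups overlapped as deposited and not after quantile normalization. Aldoa, the main aldolase, read 16.37 (MOCK), 15.18 (WT), 15.87 (clone 1) and 15.76 (clone 2), so the clones lay between the controls. After quantile normalization the same gene read 15.99, 15.97, 15.59 and 15.54, with both clones 1.33-fold lower on average. Tpi1, which interconverts the triose phosphates, behaved alike, with a difference of 0.01 as deposited and -0.47 after quantile normalization. Gapdh, which oxidises glyceraldehyde phosphate, differed by -0.07 and -0.33. It is also a common reference gene and has many processed pseudogenes in the mouse, so its probes may read close copies.

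Pgk1, which makes the first ATP of the pathway, was the enzyme with the widest scaled difference after Pfkl. It read 15.69 (MOCK), 14.59 (WT), 14.70 (clone 1) and 13.98 (clone 2). The deposited groups overlap because clone 1 lay between the controls. After quantile normalization the values were 15.36, 15.41, 14.46 and 13.69, which are 2.48-fold lower in the clones (SE 0.35, limma adjusted p = 0.403). The scaled Pgk1 difference was -1.67 without clone 1 and -0.93 without clone 2. Pgam1, which shifts the phosphate of phosphoglycerate, differed by -0.16 as deposited and -0.63 after quantile normalization. Pkm, pyruvate kinase, showed the smallest difference of all the enzymes after quantile normalization, -0.06 against 0.22 as deposited, with scaled values of 16.46 (MOCK), 16.60 (WT), 16.41 (clone 1) and 16.51 (clone 2). Ldha, which makes lactate, read 16.47 (MOCK), 15.36 (WT), 15.80 (clone 1) and 15.79 (clone 2). Without MOCK the deposited difference turned to 0.44 for Ldha, 0.32 for Pgam1 and 0.31 for Gapdh. Scaled, Ldha read 16.12, 16.15, 15.53 and 15.56, so each pair was tight and the clones were 1.50-fold lower (SE 0.29, adjusted p = 0.601). The neural isoforms Aldoc and Eno2 were below the negative control median on every array, Aldoc at 3.68 (MOCK), 4.02 (WT), 4.90 (clone 1) and 4.29 (clone 2), and 3.64, 4.07, 4.94 and 4.21 after quantile normalization, and Eno2 at 4.22, 3.83, 3.98 and 3.57. No fold is given for either.

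The other HIF targets held values in both directions, with a split by sign near that of all probe sets after quantile normalization. On that scale 10 of 18 were lower and 8 higher (background 51.7% and 48.3%), with a median of -0.53 and extremes of -2.33 for Egln3 and 1.37 for Ndrg1. Both clones lay below both controls for 9 (background 21.3%) and above both for 3 (background 19.2%). At an unadjusted limma p under 0.05, 8 were lower (background 4.22%) and 1 higher (background 4.7%). As deposited, 9 were lower and 9 higher (background 34.9% and 65.1%) with a median of -0.09, which turned to 0.06 without clone 2, 0.03 without MOCK and 0.12 when probe sets near the negative controls were left out. The scaled median was -0.035 without clone 2 and -0.91 without clone 1, so its size rests on clone 2.

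Among the transporters, Slc2a1 (GLUT1, the main glucose importer) read 15.38 (MOCK), 14.28 (WT), 15.74 (clone 1) and 14.93 (clone 2). The groups overlap, and after quantile normalization the difference was 0.02 (95% interval -0.79 to 0.82), with clone 1 above and clone 2 below both controls. Slc16a3 (MCT4, the lactate exporter) read 15.38 (MOCK), 14.17 (WT), 14.56 (clone 1) and 13.98 (clone 2). Without MOCK the deposited difference of -0.51 turned to 0.09. It read 15.07, 14.99, 14.31 and 13.69 after quantile normalization, 2.04-fold lower in the clones (SE 0.33, limma adjusted p = 0.488). Slc2a3 (GLUT3) was below the negative control median on every array, at 3.63, 3.54, 4.08 and 3.66.

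The regulators of flux pointed in opposite directions. Pdk1, a kinase that inhibits pyruvate dehydrogenase, read 12.002 (MOCK), 11.56 (WT), 11.28 (clone 1) and 10.46 (clone 2). On the common scale it read 11.93, 12.13, 11.15 and 10.17. Both clones were below both controls in either scaling, clone 2 the lower. The difference was -0.91 as deposited (SE 0.42, limma adjusted p = 0.576) and -1.37 after quantile normalization (SE 0.39, adjusted p = 0.419). Scaled, the Pdk1 difference was -1.84 without clone 1 and -0.88 without clone 2. Pfkfb4 and Pfkfb3 are sister enzymes that set the level of fructose 2,6-bisphosphate, the activator of phosphofructokinase. Pfkfb4 read 6.94 (MOCK), 6.35 (WT), 6.08 (clone 1) and 5.68 (clone 2), and 7.01, 6.63, 6.03 and 5.51 after quantile normalization. Both clones were below both controls, 2.07-fold on the latter scale (SE 0.33, adjusted p = 0.48). Pfkfb3 read 7.65 (MOCK), 7.80 (WT), 8.75 (clone 1) and 8.85 (clone 2). The scaled values were 7.68, 8.16, 8.64 and 8.54. Its pairs were tight as deposited, and the clones were 2.11-fold higher as deposited (SE 0.37, adjusted p = 0.432) and 1.59-fold higher after quantile normalization (SE 0.32, adjusted p = 0.59).

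Bnip3 and Bnip3l encode paired receptors that send mitochondria to autophagy, and they too diverged. Bnip3 read 11.89 (MOCK), 10.83 (WT), 10.54 (clone 1) and 9.03 (clone 2). Scaled to 1 distribution the order held, at 11.80, 11.34, 10.44 and 8.72. As deposited it was lowest in clone 2, 5.03-fold below the control mean, against 1.76-fold in clone 1. The mean difference was -1.57 as deposited (SE 0.55, limma adjusted p = 0.437) and -1.99 after quantile normalization (SE 0.53, adjusted p = 0.401). Scaled, the Bnip3 difference was -2.84 without clone 1 and -1.13 without clone 2. Bnip3l read 11.36 (MOCK), 11.87 (WT), 12.56 (clone 1) and 11.99 (clone 2). After quantile normalization the arrays read 11.29, 12.47, 12.39 and 11.69, with the widest gap between the controls of any member, and the clones lay between them.

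The oxygen sensors that close the HIF feedback loop were lowest in clone 2. Egln3 read 11.98 (MOCK), 10.89 (WT), 10.93 (clone 1) and 8.11 (clone 2). Clone 2 was 10.0-fold below the control mean as deposited and 14.2-fold after quantile normalization, while clone 1 was 1.42-fold and 1.78-fold below. The scaled signals were 11.89, 11.40, 10.81 and 7.82. As deposited clone 1 lay a little above WT, so the groups overlap. The mean difference was -1.91 as deposited (SE 0.76, limma adjusted p = 0.512) and -2.33 after quantile normalization (SE 0.81, adjusted p = 0.499). Egln3 passed under several alternatives on deposited values. The limma adjusted p was 0.0348 among probe sets above the median signal and 0.035 among those above the negative control level. With a trended and robust variance it was 0.0213. Under these settings limma called 196, 172 and 340 probe sets in all, against 9 in the main test. As deposited, the Egln3 difference was -3.32 without clone 1 and -0.50 without clone 2. Scaled, the Egln3 difference was -3.81 without clone 1 and -0.83 without clone 2. Egln1, the main HIF hydroxylase, read 12.81 (MOCK), 12.13 (WT), 12.44 (clone 1) and 11.57 (clone 2). Scaled, it read 12.68, 12.74, 12.27 and 11.28, 1.91-fold lower in the clones (SE 0.39, adjusted p = 0.54). The scaled Egln1 difference was -1.42 without clone 1 and -0.44 without clone 2.

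Of the secreted and surface products, Vegfa, the vessel growth factor, read 11.06 (MOCK), 10.50 (WT), 11.44 (clone 1) and 11.84 (clone 2). Both clones were above both controls in either scaling, 1.81-fold as deposited (SE 0.40, limma adjusted p = 0.583) and 1.33-fold after quantile normalization (SE 0.30, adjusted p = 0.714). Car9, the carbonic anhydrase that is a widely used hypoxia marker, had signals of 6.14 (MOCK), 5.499 (WT), 4.94 (clone 1) and 4.91 (clone 2). Its scaled signals were 6.19, 5.65, 4.97 and 4.81. The clone values are below the negative control median, so no fold is given, and the control values are below the 75th percentile of those features. Adm, which encodes the vessel-dilating peptide adrenomedullin, was below the negative control median on every array, at 2.52, 3.57, 3.18 and 3.91 as deposited and 2.51, 3.61, 3.22 and 3.84 scaled.

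Ndrg1, a growth and stress regulated gene used as a hypoxia marker, was the member with the largest value in the upward direction. It read 12.69 (MOCK), 12.22 (WT), 13.68 (clone 1) and 14.88 (clone 2). Quantile-normalized signals were 12.56, 12.84, 13.47 and 14.67. The clones lay above both controls in either scaling and clone 2 was 2.29-fold above clone 1. The difference was 1.83 as deposited (SE 0.46, 95% interval 0.80 to 2.85, limma adjusted p = 0.26) and 1.37 after quantile normalization (SE 0.43, adjusted p = 0.47). Scaled, the Ndrg1 difference was 1.94 without clone 1 and 0.78 without clone 2. Ddit4 (REDD1), an inhibitor of mTORC1 that stress pathways also induce, read 11.58 (MOCK), 11.47 (WT), 12.47 (clone 1) and 12.30 (clone 2), 1.82-fold higher as deposited (adjusted p = 0.545). After quantile normalization WT read 12.005 and clone 2 12.004, and the groups overlap. Ankrd37, a small ankyrin repeat gene, read 6.20 (MOCK), 6.40 (WT), 6.30 (clone 1) and 5.47 (clone 2), a difference of -0.42 with clone 1 between the controls. After quantile normalization the arrays read 6.26, 6.69, 6.23 and 5.34, a difference of -0.69 with both clones below both controls, clone 1 only just.

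P4ha1 and P4ha2 encode catalytic subunits of collagen prolyl hydroxylase. P4ha1 parted the clones, at 12.97 (MOCK), 12.17 (WT), 13.54 (clone 1) and 11.83 (clone 2). Quantile-normalized, it read 12.83, 12.78, 13.33 and 11.52. Clone 1 was above and clone 2 below both controls in either scaling, and the gap between the clones was 3.29-fold as deposited. The mean difference flipped with scale, 0.12 as deposited and -0.38 after quantile normalization. P4ha2 read 10.14 (MOCK), 9.97 (WT), 9.65 (clone 1) and 9.87 (clone 2), with a difference of -0.30 as deposited and -0.73 after quantile normalization (SE 0.30, limma adjusted p = 0.542).

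The clones were then set apart from each other, as single arrays without a test. After quantile normalization clone 2 was at least 1 log2 unit below the control mean for 11 of 32 members (background 4.54%) and above it for 1 (background 5.41%). Clone 1 was that far below for 2 members (background 3.03%) and above for 1 (background 3.94%). The 11 in clone 2 were Pfkl, Pgk1, Egln3, Bnip3, Pdk1, Egln1, Slc16a3, Pfkfb4, P4ha1, Ankrd37 and Car9, the last with clone signals under the negative control median. The 2 in clone 1 were Pfkl and Bnip3, and the 1 above was Aldoc, at background on every array. As deposited the counts were 5 below (background 1.91%) and 3 above (background 11.8%) for clone 2, and 1 below (background 2.3%) and 5 above (background 6.31%) for clone 1. Directly compared, clone 2 was at least 1 log2 unit below clone 1 for Egln3, P4ha1, Bnip3 and Hk1 in the scaled data (4 of 32, background 5.74%) and above it for Ndrg1 (1 of 32, background 5.54%). As deposited the counts were also 4 (background 4.12%) and 1 (background 8.6%).

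For clone 2 minus clone 1 after quantile normalization, the glycolytic enzymes had a median of -0.05, 6 higher and 8 lower, ranging down to -1.22 for Hk1, with -0.77 for Pgk1 and -0.65 for Pfkp. After median centring that median was -0.26. The other HIF targets had a median of -0.58 after quantile normalization, 4 higher and 14 lower. For MOCK minus WT the medians of the enzymes and of the other targets were -0.05 and -0.04 after quantile normalization and 0.82 and 0.52 as deposited. At least 1 log2 unit between the controls was seen for 2 members in the scaled data, Bnip3l and Adm, both lower in MOCK (background 2.67%), and for 0 higher in MOCK (background 1.85%). As deposited 8 were that much higher in MOCK (background 8.79%) and 1 lower (background 1.27%).

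**Figure D3:**
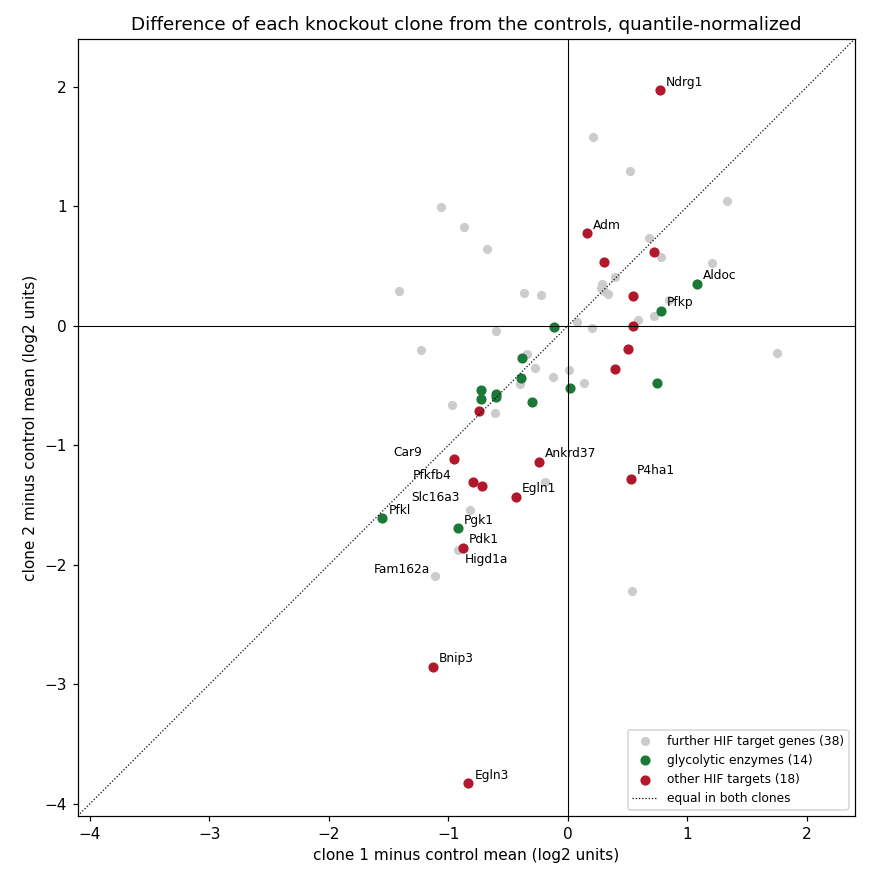
Difference of clone 1 (x axis) and clone 2 (y axis) from the mean of MOCK and WT after quantile normalization, in log2 units, 1 point per gene. Green points are the 14 glycolytic enzymes, red points the 18 other HIF targets and grey points 38 further HIF target genes, and the dotted line marks equal differences. Both axes share the control arrays. Bnip3 and Egln3 lie far below the line, Ndrg1 lies above it, and Pfkl sits near it.

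Other listed genes of these pathways and the reference genes gave 0 calls by limma, as deposited and after quantile normalization. Of 26 further glycolysis and glucose entry genes 22 were measured, 10 higher and 12 lower after quantile normalization with a median of -0.02, and 13 higher and 9 lower as deposited with a median of 0.17. At an unadjusted p under 0.05 there was 1 in each direction after quantile normalization (background 4.7% higher and 4.22% lower), and there were 3 higher and 0 lower as deposited (background 7.54% and 1.22%). Ldhb, the lactate dehydrogenase subunit that favours pyruvate, read 6.06 (MOCK), 5.58 (WT), 7.05 (clone 1) and 7.24 (clone 2). Both clones were above both controls in either scaling, with a difference of 1.04 after quantile normalization (SE 0.31, limma adjusted p = 0.44). The control signals were below the 75th percentile of the negative control features, so no fold is given. Bpgm, which makes bisphosphoglycerate, differed by 0.64 after quantile normalization, and Pdk3, a sister of Pdk1, by -0.69. As deposited Pdk3 was low in clone 2 alone, at 9.02 against 10.13 in MOCK, 9.76 in WT and 10.33 in clone 1.

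The HIF subunits and oxygen sensing genes, listed without Egln1 and Egln3, differed by -0.61 to 0.41 after quantile normalization and by -0.56 to 0.91 as deposited. All 11 were measured, 4 higher and 7 lower after quantile normalization with a median of -0.08, and 8 higher and 3 lower as deposited with a median of 0.20. Hif1a, the oxygen-regulated subunit, read 14.003 (MOCK), 13.35 (WT), 14.35 (clone 1) and 14.82 (clone 2). Both clones were above both controls, with a difference of 0.91 as deposited (limma adjusted p = 0.569) and 0.41 after quantile normalization (adjusted p = 0.742). Arnt, its partner, differed by -0.04 and -0.45, and Siah1a, a ligase that acts on the hydroxylases, by 0.72 and 0.37. Epas1 and Hif3a were below the negative control median on every array. Hif1a is controlled mainly at the protein level, which these arrays do not read.

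Of a longer list of 40 HIF targets 38 were measured, 18 higher and 20 lower after quantile normalization with a median of -0.02, and 26 higher and 12 lower as deposited with a median of 0.35. Fam162a, a mitochondrial protein, read 11.37 (MOCK), 10.72 (WT), 10.27 (clone 1) and 9.49 (clone 2), and Higd1a, another, at 12.13, 11.49, 11.24 and 10.45. Both were lower in each clone than in either control and lowest in clone 2. After quantile normalization the mean of the 2 clones was 3.04-fold lower for Fam162a (SE 0.38, limma adjusted p = 0.358). For Higd1a it was 2.63-fold lower (SE 0.38, adjusted p = 0.408). Kdm4c, a histone demethylase, was in the other direction, 1.88-fold higher (adjusted p = 0.528).

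Of the neighbouring routes, 4 of 5 measured pentose phosphate genes were lower after quantile normalization, with a median of -0.54, and 3 of 5 as deposited, with a median of -0.15. Pgd, an NADPH-producing dehydrogenase, differed by -0.79 on the scaled arrays, Pgls, the lactonase, by -0.76 and Rpia by -0.54, each with an adjusted p of 0.543 or more. The genes of pyruvate entry and the citric acid cycle, 24 of 26 measured, had a median of -0.07 after quantile normalization, 10 higher and 14 lower, and of 0.32 as deposited, 19 higher and 5 lower. Pcx, which carboxylates pyruvate, had the widest scaled difference, -1.58 (SE 0.57, limma adjusted p = 0.513), and as deposited read 10.96 (MOCK), 9.21 (WT), 9.54 (clone 1) and 8.24 (clone 2). Its controls were themselves 1.76 apart as deposited. Pdp1, the phosphatase that opposes Pdk1, differed by -0.90 with clone 1 the low array, and Idh3g by -0.66. The 11 measured reference genes had a median of 0.38 as deposited and -0.04 after quantile normalization. Pgk1, Gapdh and Gusb had the widest scaled differences among them, at -1.31, -0.33 and 0.32.

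**Figure D4:**
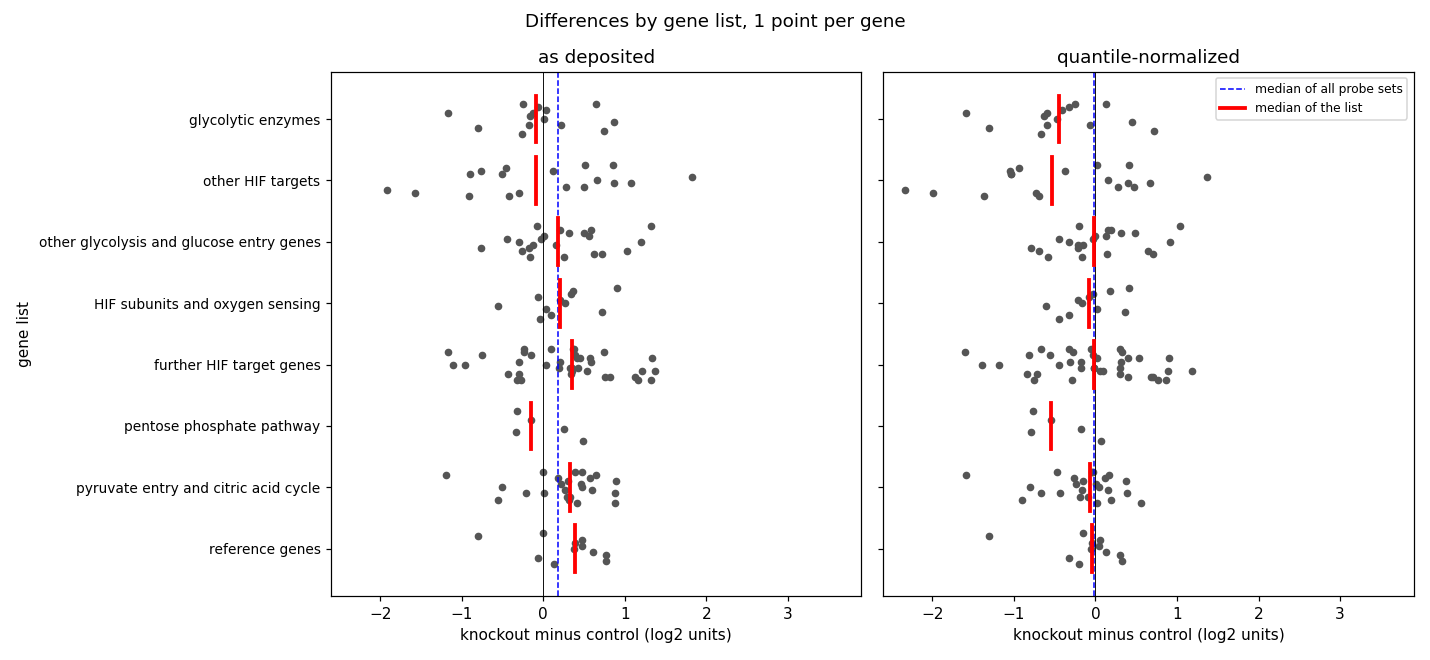
Knockout minus control difference in log2 units on the x axis for each gene of 8 lists, as deposited at left and quantile-normalized at right, with 1 point per gene, the list median as a red bar and the median of all probe sets as a dashed blue line. After quantile normalization the glycolytic enzymes (-0.44), the other HIF targets (-0.53) and the pentose phosphate genes (-0.54) have medians left of the blue line at -0.02, and the other lists lie near it.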

How the data were processed

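The Transcriptome Analysis Console is named in the submitters' processing notes, with a version not given in the sources used here. Deposited by the authors was 1 log2 signal per feature and array, on a scale taken from the range of the values; normalization, filters and build are not stated in the labels. Of 28846 features, 6640 control features were left out and 22206 probe sets tested. Names came from the platform annotation, and 19572 probe sets matched RefSeq (GRCm38.p6) by Entrez identifier. The highest-mean probe set stood for a gene. Values are 1 array each; the number of arrays limits the precision.

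The main test was limma 3.58.1 (R 4.3.3), lmFit and eBayes on deposited values, knockout minus control, with Benjamini-Hochberg adjustment over 22206 probe sets and a threshold of 0.05. It was tested on simulated data. Alternatives were quantile normalization, median centring, filters on dim probe sets, a trended robust variance, the mean over probe sets and leaving out each array. Cyclic loess and scaled leave-outs were chosen after seeing the data. A gene whose 2 arrays of a group lay below the negative control median (5.12 to 5.22) has no fold. Named genes were, per direction, the 4 members with the largest scaled difference whose groups do not overlap in both scalings, the 4 widest between clones and between controls, and up to 3 per further list above the negative control 75th percentile; the other members are given by their values. The members and lists were chosen with earlier results of these data known. The cell label of all 4 samples names the knockout, so titles were followed.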

Additional observations from a re-analysis of the deposited data

How the results depend on the processing

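No paired analysis was possible because the labels number the clones and not the controls. Limma called 9 of all probe sets and 0 members as deposited. The count over all probe sets was 1 after quantile normalization and after cyclic loess, 196 among probe sets above the median signal, 172 among those above the negative control level, 340 with a trended robust variance, and 0 to 804 with an array left out. Members called numbered 1 (Egln3) under each of the last 3 settings and 0 to 7 with an array left out, the highest without clone 1. A lone array of a group is there assumed to vary like the other pair, and these leave-outs were run as deposited and quantile-normalized. The highest count of members and the highest count over all probe sets came from the same run, quantile-normalized without clone 1. The members' count is therefore to be read against that wider rise.

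The median difference of the glycolytic enzymes ran from -0.53 to 0.38 with an array left out, the highest being without MOCK as deposited. That of the other HIF targets was -0.53 after quantile normalization and -0.46 after cyclic loess, and turned to 0.12 as deposited with probe sets near the negative controls left out. With an array left out it ran from -0.91 (without clone 1, quantile-normalized) to 0.063 (without clone 2, as deposited). For clone 1 against the controls, the enzymes' median was -0.46 after cyclic loess and that of the other targets 0.65 with probe sets near the negative controls left out. For clone 2, after quantile normalization and cyclic loess, the medians were -0.53 and -0.48 for the enzymes and -0.91 and -0.88 for the other targets. For MOCK minus WT they were -0.055 and 0.0035 for the enzymes and -0.045 and -0.060 for the other targets.

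Against slightly positive deposited differences, Aldoa was -0.41, -0.10 and -0.38 after quantile normalization, centring and cyclic loess, P4ha1 -0.38, -0.019 and -0.30, and Tpi1 -0.47, -0.12 and -0.41. Pkm was -0.065 after quantile normalization and -0.20 after cyclic loess. With an array left out the difference changed sign for 13 members: Adm -0.084 to 1.02, Aldoa -0.56 to 0.63, Bnip3l -0.43 to 0.94, Eno2 -0.53 to 0.015, Gapdh -0.45 to 0.31, Hk1 -0.47 to 1.20, Ldha -0.68 to 0.44, P4ha1 -1.26 to 0.98, Pgam1 -0.74 to 0.32, Pkm -0.22 to 0.65, Slc16a3 -1.32 to 0.094, Slc2a1 -0.36 to 1.05 and Tpi1 -0.63 to 0.59. The causes were not tested. Adm, Eno2, Aldoc and Slc2a3 were below the negative control median on every array, and the clone signals of Car9 were too, so signal over background limits these 5. Mean signal was above the negative control 75th percentile for 25 of the 32 members, and Pfkfb4 and Ankrd37 also fell short of it.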
